A study of Mus musculus with 20 samples.

Results

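Molecular chaperones bind unfolded or partly folded proteins and release them for folding, assembly or degradation. In the cytosol, J-proteins (the Dnaj genes) hand clients to Hsp70 and speed its ATP hydrolysis, Hsp110 and BAG proteins exchange the bound nucleotide, Stip1 and St13 connect Hsp70 with Hsp90, and the ring-shaped CCT chaperonin folds actin and tubulin. Skeletal muscle leans on these proteins for myosin and actin assembly and for the turnover of damaged filament proteins, and many of their genes are induced through heat shock elements by the factor Hsf1. The genes were chosen by symbol alone: every probe set with a single platform symbol beginning with Hspa, Hsp90, Hspd, Hspe, Hsph, Dnaj, Cct plus a digit or Bag plus a digit, and Stip1, St13, Tcp1 and Ahsa1, without Hspa5, Hsp90b1 and Dnajc3. Hsf1 was sought too, but no probe set of Hsf1 or of Hsp90ab1 met the rule. The rule gave 100 of the 10748 probe sets of the table, for 57 of the 6603 genes with a symbol of their own. The name cytosolic holds for most but not all of them. By a list of symbols, which may not be complete, 9 genes were assigned to mitochondria. Another 6, all J-proteins, were assigned to the endoplasmic reticulum, and both are described apart.

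RNA came from female C57BL/6 mice at 14 weeks of age, called the symptomatic stage in the labels. SOD1G93A mice carry a human SOD1 transgene with the G93A change that causes amyotrophic lateral sclerosis; the sources used here give neither its promoter nor its copy number. Gastrocnemius and triceps of SOD1G93A mice (SOD1) and non-transgenic mice (NTg) were measured, with 4 arrays per muscle and genotype (8 arrays per genotype). The labels do not say which arrays came from the same mouse, so the muscles were compared without pairing. A further 4 mice had a sciatic nerve crush with forceps for 30 s at 12 weeks, and their gastrocnemius was taken 2 weeks later (crush). The labels do not say whether these mice carried the transgene, and no sham-operated group was analysed here. There is 1 array per muscle, 20 in all and 4 per group, and the number of arrays limits the precision.

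Promoter windows of 250 bases before the transcription start were found for 45 of the 57 genes in the RefSeq table (mouse GRCm38.p6). A heat shock element of 2 units was searched as GAANNTTC or TTCNNGAA, both of which read the same on either strand. It was present in 12 of the 45 genes (26.7%) and in 14.5% of the 27025 genes of the table. With 3 alternating units (GAANNTTCNNGAA or TTCNNGAANNTTC) it was present in 3 of 45 genes (6.67%: Dnajb6, Hspd1 and Hspe1) and in 0.514% of the table. Hspd1 and Hspe1 share the same motif stretch, read on opposite strands. It is counted for both genes, here and among the 12. A CCAAT box on either strand, searched in the same windows, was present in 40% of the chaperone genes and 37.5% of the table. Windows of the genes that the results below turn on, and that hold the 2-unit motif, follow 5′ to 3′ with the motif in capitals. They are Hspa1b, which rose in SOD1 gastrocnemius, Dnaja4, Dnajb4 and Hsph1, which differed between the muscles of NTg mice, and Hspe1, whose window overlaps that of Hspd1 on the opposite strand and holds overlapping copies of the motif.
Hspa1b, chr17:34959239-34959488, minus strand: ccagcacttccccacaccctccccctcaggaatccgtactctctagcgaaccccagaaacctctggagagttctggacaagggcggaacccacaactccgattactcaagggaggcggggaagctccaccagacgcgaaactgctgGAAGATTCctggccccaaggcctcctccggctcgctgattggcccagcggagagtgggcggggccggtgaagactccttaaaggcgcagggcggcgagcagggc
Dnaja4, chr9:54699309-54699558, plus strand: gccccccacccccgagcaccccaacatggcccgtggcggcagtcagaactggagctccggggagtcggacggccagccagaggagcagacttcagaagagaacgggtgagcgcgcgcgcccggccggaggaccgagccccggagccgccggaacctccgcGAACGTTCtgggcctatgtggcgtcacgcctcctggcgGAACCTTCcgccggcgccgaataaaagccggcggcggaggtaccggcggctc
Dnajb4, chr3:152193846-152194095, minus strand: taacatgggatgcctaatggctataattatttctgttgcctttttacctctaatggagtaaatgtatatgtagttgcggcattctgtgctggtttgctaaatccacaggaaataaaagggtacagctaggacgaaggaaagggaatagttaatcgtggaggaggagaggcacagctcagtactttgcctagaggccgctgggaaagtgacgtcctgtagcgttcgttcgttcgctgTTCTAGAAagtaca
Hsph1, chr5:149636316-149636565, minus strand: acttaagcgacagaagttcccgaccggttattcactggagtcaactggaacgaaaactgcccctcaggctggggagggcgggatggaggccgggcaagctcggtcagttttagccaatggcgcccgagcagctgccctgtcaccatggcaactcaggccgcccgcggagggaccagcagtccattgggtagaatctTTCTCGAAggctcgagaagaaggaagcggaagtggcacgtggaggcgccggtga
Hspe1, chr1:55087898-55088147, plus strand: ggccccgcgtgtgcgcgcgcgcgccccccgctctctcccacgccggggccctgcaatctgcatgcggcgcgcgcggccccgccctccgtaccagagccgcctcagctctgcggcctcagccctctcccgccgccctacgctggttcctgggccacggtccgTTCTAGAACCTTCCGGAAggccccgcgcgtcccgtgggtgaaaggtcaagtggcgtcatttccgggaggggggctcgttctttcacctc
Of the 10 genes called in a comparison with NTg below, 7 had a window in the table and 1 of these, Hspa1b, held the 2-unit motif. All 3 genes called between the NTg muscles had a window, and the motif was present in 3. A gene with several windows was counted if any of them held the motif. Dnaja4 and Dnajb4 each had another window, not shown, without it. These are matches of letters, not tested sites.

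Values are log2 MAS5 signals. Of the 100 chaperone probe sets, 83 (51 genes) were above the filter on low values, a mean of 5.88 over all arrays, and were tested among 7523 probe sets. Differences between groups are log2 differences, given ± the standard error (SE) from limma, with 4 arrays a group, and a probe set is called at an adjusted p under 0.05. Levels of different probe sets are not comparable as amounts of RNA. In whole muscle, fewer cells of a type and less RNA per cell cannot be told apart.

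Some arrays stood apart. Crush replicate 4 had a mean correlation of 0.917 with the other crush arrays and 0.945 with SOD1 gastrocnemius, and SOD1 triceps replicate 4 had 0.939 with its own group and 0.951 with SOD1 gastrocnemius. The log2 summed signal of 3 genes that rise in denervated muscle (Chrna1, Myog and Myod1) was 7.83 to 8.10 in NTg gastrocnemius, 9.82 to 11.69 in SOD1 gastrocnemius, 8.08 to 8.62 in crush replicates 1 to 3 and 12.13 in crush replicate 4. In triceps it was 7.66 to 8.08 in NTg, 9.09 to 9.60 in SOD1 replicates 1 to 3 and 11.94 in SOD1 replicate 4. Other arrays also lay nearer to another group. NTg triceps replicate 1 had a mean correlation of 0.963 with NTg gastrocnemius and 0.953 with its own group. Crush replicates 1 to 3 were each nearest to NTg gastrocnemius by mean correlation, SOD1 gastrocnemius replicate 1 likewise, and SOD1 triceps replicates 1 and 3 were nearest to NTg triceps. Of 10 skeletal muscle markers all were tested and none was called in any comparison; their means lay between 11.54 and 12.66. Their log2 summed signal was 14.87 to 16.03 in NTg triceps and 14.12 to 15.42 in SOD1 triceps, and its part in the triceps results was not tested. Of 9 tested macrophage markers 7 rose in SOD1 gastrocnemius, and none was called in SOD1 triceps or after crush. The log2 summed macrophage signal was 9.62 to 9.94 in NTg, 10.48 to 11.11 in SOD1 and 9.76 to 10.41 in crushed gastrocnemius, and its part in the results below was not tested.

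In SOD1 gastrocnemius, cytosolic folding genes moved in both directions. Hspa1b, Hspa4, Hsp90aa1, Bag3, Cct3 and Cct4 rose by 1.41-fold to 2.14-fold, and the J-protein genes Dnaja2, Dnajb5 and Dnajc12 fell. Each was called at 1 probe set, which for Hsp90aa1, Cct4, Dnaja2 and Dnajb5 was not the brightest of the gene. By the brightest tested probe set of each gene, 4 of 51 genes rose and 1 fell. The share of all genes counted in this way is not given. After nerve crush Dnaja2 and Dnajc21 fell and none rose. In SOD1 triceps none was called. In SOD1 gastrocnemius 9 of the 83 probe sets were called against NTg (10.8%), beside 12% of all probe sets tested. Of these 6 rose, beside 5.97% of all, and 3 fell, beside 6.02%. The groups did not overlap at 18 chaperone probe sets (21.7%), beside 26% of all. Chaperones were thus called about as often as other genes.

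The median log2 change of the 83 probe sets was 0.11 in SOD1 gastrocnemius, where that of all tested probe sets was -0.0015. In triceps it was 0.11 beside 0.013, and after crush 0.087 beside 0.017. Leaving out 1 array moved the count of 9 in SOD1 gastrocnemius to 2, 1, 5 and 2 as NTg replicates 1 to 4 were left out in turn, and to 16, 3, 0 and 1 as SOD1 replicates 1 to 4 were. It was 17 (11 of them higher) without crush replicate 4, which enters the shared estimate of the spread, beside 17.8% of all probe sets. No call therefore held in every one of these fits, while the direction of each called probe set did. The share of all probe sets is given only without crush replicate 4, so the other counts do not set chaperones apart from other genes.

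**Figure D1:**
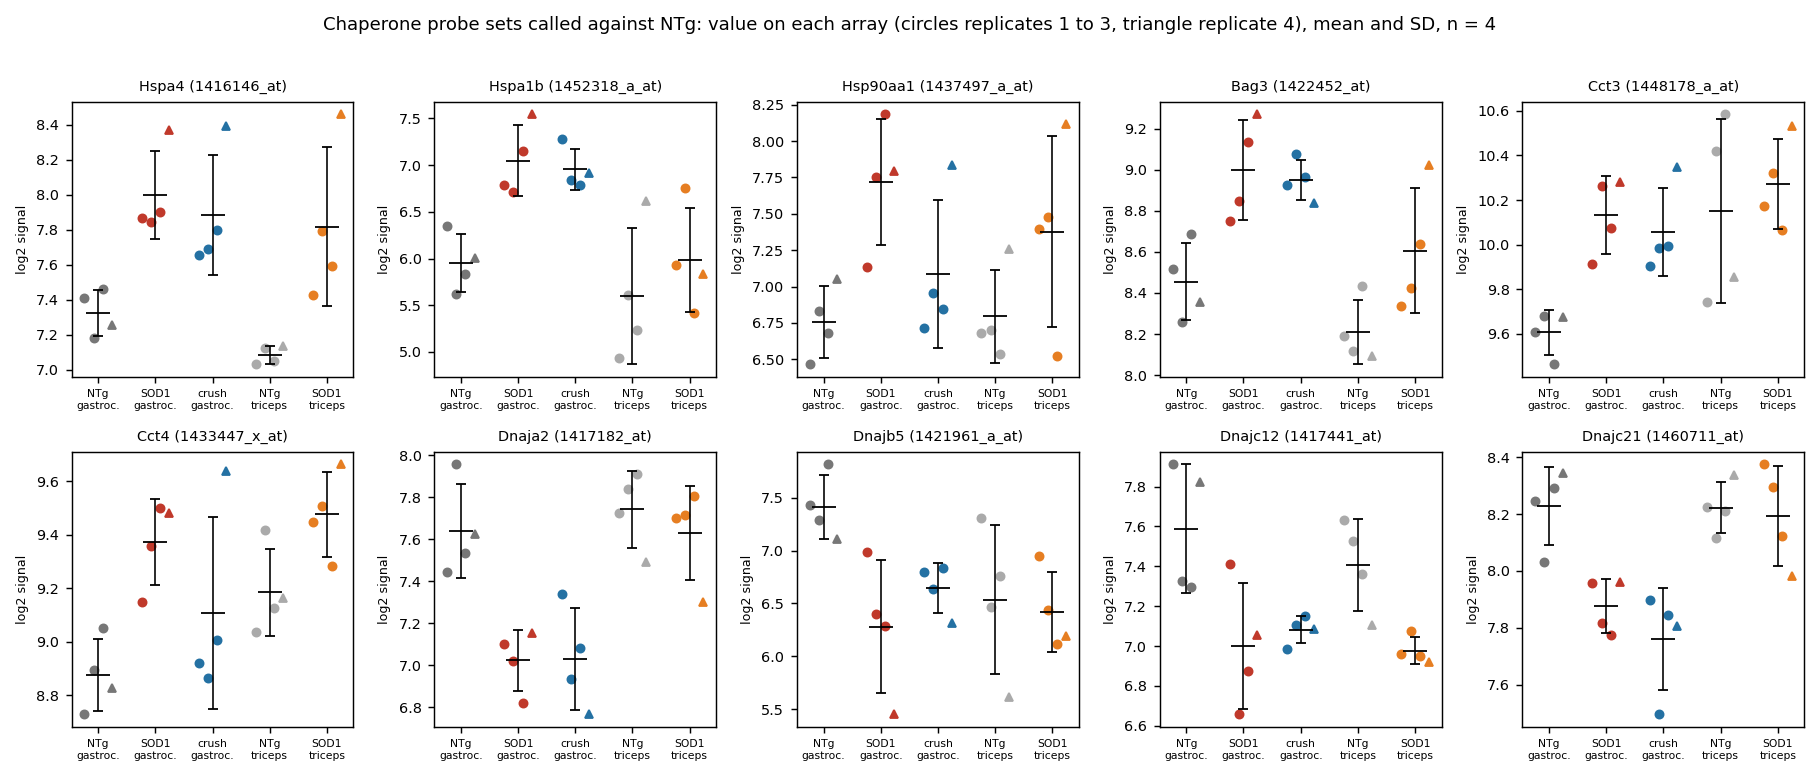
Log2 signal (y axis) of the 10 chaperone probe sets called against NTg in SOD1 or crushed gastrocnemius, on each of 20 arrays by group (x axis). Circles are replicates 1 to 3, triangles replicate 4, and bars the mean and SD of 4 arrays. The SOD1 and NTg gastrocnemius arrays do not overlap except for Dnajc12, and crush replicate 4 lies apart from crush replicates 1 to 3 for Hspa4, Hsp90aa1 and Cct4.

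Hsp70 and Hsp110 bind the client itself. Hspa4, an Hsp110-class exchange factor of Hsp70, was 7.41, 7.18, 7.46 and 7.26 on the NTg gastrocnemius arrays and 7.87, 7.84, 7.90 and 8.37 on the SOD1 arrays (probe set 1416146_at). Every SOD1 array was above every NTg array, and Hspa4 rose by 0.67 ± 0.19 (SE; 1.59-fold, adjusted p = 0.0297). In triceps it was 7.03, 7.12, 7.05 and 7.13 in NTg and 7.43, 7.79, 7.59 and 8.46 in SOD1 mice. These groups did not overlap either, but the difference of 0.73 ± 0.19 was not called (adjusted p = 0.109), and it was 0.52 (adjusted p = 0.402) without SOD1 triceps replicate 4. Without crush replicate 4 in the fit, the same triceps difference had an adjusted p of 0.0303 and was the only chaperone call there, beside 2.22% of all probe sets. After crush Hspa4 was 7.66, 7.69, 7.80 and 8.39, a difference of 0.56 ± 0.19 (adjusted p = 0.103) that became 0.39 (adjusted p = 0.224) without replicate 4. The second probe set of the gene, 1435194_at, did not move with the first: its log2 change was 0.03 in SOD1 gastrocnemius and -0.12 in triceps.

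Hspa1b, the stress-inducible Hsp70, was 6.35, 5.62, 5.83 and 6.01 in NTg, 6.79, 6.71, 7.15 and 7.54 in SOD1 and 7.28, 6.85, 6.79 and 6.92 in crushed gastrocnemius (1452318_a_at). Both conditions stood above all NTg arrays, crush replicates 1 to 3 included. It rose by 1.10 ± 0.31 in SOD1 gastrocnemius (2.14-fold, adjusted p = 0.0276), and the crush difference of 1.01 ± 0.31 missed the threshold (adjusted p = 0.0685; 1.02 and 0.0807 without crush replicate 4). In triceps NTg arrays were at 4.94, 5.60, 5.23 and 6.61 and SOD1 arrays at 5.93, 6.75, 5.42 and 5.84, which overlap (0.39 ± 0.31, adjusted p = 0.536). Hspa1b has a near-identical copy, Hspa1a, which the probes may also bind, so the 2 genes cannot be separated here. Its 2 dim probe sets, below the filter, had log2 changes of 0.84 and 0.48 in SOD1 gastrocnemius.

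Hspa8, the constitutive Hsp70 and the brightest of this group, differed little. Its probe set 1455789_x_at was 11.10 to 11.34 in NTg gastrocnemius, 11.00 to 11.49 in SOD1 and 10.87 to 11.08 in crush replicates 1 to 3, with 11.50 in crush replicate 4. The log2 change was 0.15 in SOD1 gastrocnemius, with an adjusted p of 0.522. Hspa8 also has processed pseudogenes, and its probe sets may bind more than 1 transcript. At 1420622_a_at the crush difference was -0.31 (adjusted p = 0.412), and -0.54 (adjusted p = 0.0571) without replicate 4.

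Hsph1, the heat-inducible Hsp110, was 7.74, 8.02, 8.04 and 7.94 in NTg gastrocnemius, 8.01, 8.42, 8.58 and 8.54 in SOD1, and 8.03, 7.49, 7.74 and 8.61 after crush (1425993_a_at). The SOD1 difference was 0.45 ± 0.19 (adjusted p = 0.115) and the groups overlapped. Without crush replicate 4 in the fit the adjusted p was 0.0392.

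Hspa4l, a second Hsp110-class gene, is the largest chaperone difference of the table but lay below the filter with both probe sets, and it is named because its values stood out. At 1418253_a_at it was 4.44, 3.34, 3.62 and 3.10 in NTg gastrocnemius, 5.49, 6.07, 6.21 and 6.34 in SOD1, and 4.92, 5.10, 5.19 and 6.49 after crush. All 8 SOD1 and crushed gastrocnemius arrays were above all NTg gastrocnemius arrays. In the fit with no filter it was higher by 2.40 ± 0.44 in SOD1 gastrocnemius (adjusted p = 0.00584) and by 1.80 ± 0.44 after crush (adjusted p = 0.0336). At 1449010_at the NTg arrays were at 4.65, 4.23, 5.26 and 4.65 and the SOD1 arrays at 4.92, 6.18, 6.44 and 6.54, with overlap at SOD1 replicate 1 (1.32 ± 0.38, adjusted p = 0.0346). Here the crush difference was 0.37 (adjusted p = 0.669), so the probe sets disagree on crush. In SOD1 triceps, 1418253_a_at was 4.66, 4.11, 4.29 and 6.42, beside 3.81 to 5.05 in NTg triceps. MAS5 signals this low are uncertain, and no detection calls were used.

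**Figure D2:**
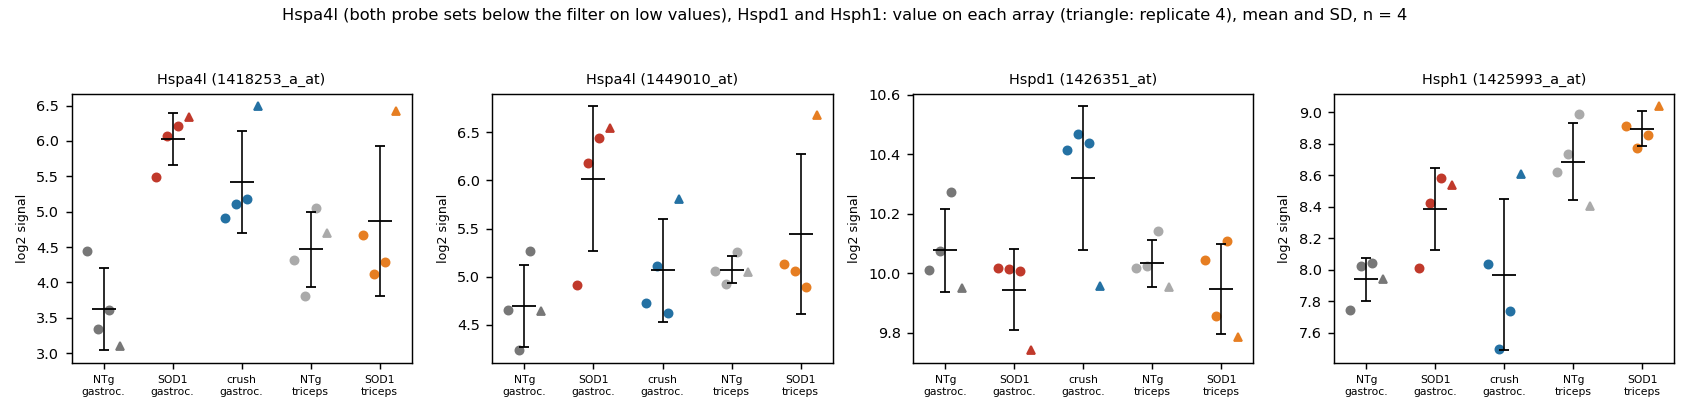
Log2 signal (y axis) on each array by group (x axis) for both probe sets of Hspa4l, which lie below the filter on low values, for Hspd1 and for Hsph1; triangles are replicate 4 and bars the mean and SD of 4 arrays. Hspa4l at 1418253_a_at separates all SOD1 and crushed gastrocnemius arrays from NTg gastrocnemius, but not from NTg triceps. Hspd1 is higher in crush replicates 1 to 3 (10.41 to 10.47) than on any other array.

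Hsp90aa1, the inducible cytosolic Hsp90, rose at 1 of its 3 probe sets. At 1437497_a_at it was 6.46, 6.83, 6.68 and 7.05 in NTg gastrocnemius and 7.13, 7.75, 8.18 and 7.80 in SOD1. These do not overlap, and it rose by 0.96 ± 0.29 (1.95-fold, adjusted p = 0.038). Its other probe sets were higher too, by 0.69 (adjusted p = 0.0794) and by 0.44 (adjusted p = 0.231), without a call. After crush the same probe set was 6.71, 6.96, 6.85 and 7.83, so that only replicate 4 was above the NTg range. The crush difference of 0.33 (adjusted p = 0.57) was 0.08 without it. In triceps the values were 6.68, 6.70, 6.54 and 7.26 in NTg and 7.40, 7.48, 6.52 and 8.12 in SOD1 (0.58 ± 0.29, adjusted p = 0.342), with a difference of 0.34 (adjusted p = 0.745) without SOD1 replicate 4.

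The co-chaperones of Hsp90 were not called against NTg. St13, which bridges Hsp70 and Hsp90, was 6.75 to 7.12 in NTg and 7.23 to 7.75 in SOD1 gastrocnemius without overlap (0.48 ± 0.19, adjusted p = 0.104), and in triceps it differed by 0.57 ± 0.19 (adjusted p = 0.212). Stip1, the adaptor between Hsp70 and Hsp90, was 7.57 to 7.90 in NTg and 7.53 to 7.59 in SOD1 gastrocnemius (-0.15 ± 0.10, adjusted p = 0.37). Ahsa1, which activates the ATPase of Hsp90 and was the brightest of the group, was 8.99 to 9.15 and 8.81 to 9.09 (-0.06 ± 0.10, adjusted p = 0.719).

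Among the BAG exchange factors Bag3, which links Hsp70 to autophagy of damaged filament proteins at the Z-disc, was the only one called. It was 8.52, 8.26, 8.69 and 8.35 in NTg, 8.75, 8.85, 9.13 and 9.27 in SOD1 and 8.92, 9.07, 8.96 and 8.84 in crushed gastrocnemius. Every SOD1 and crushed array, replicates 1 to 3 as well as 4, was above every NTg array. Bag3 rose by 0.55 ± 0.15 in SOD1 gastrocnemius (1.46-fold, adjusted p = 0.0254), and the crush difference of 0.50 ± 0.15 missed the threshold (adjusted p = 0.0645; 0.53 and 0.0571 without replicate 4). In triceps it was 8.19, 8.12, 8.43 and 8.09 in NTg and 8.34, 8.43, 8.64 and 9.02 in SOD1 (0.40 ± 0.15, adjusted p = 0.238), with a difference of 0.26 (adjusted p = 0.641) without SOD1 replicate 4. Bag1, the brightest BAG gene, was 9.21 to 9.52 in NTg and 9.32 to 9.78 in SOD1 gastrocnemius (0.17 ± 0.14, adjusted p = 0.426). Of the other tested BAG genes, Bag2, Bag5 and Bag6 had log2 changes of -0.01, -0.01 and -0.29.

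J-proteins assigned to neither mitochondria nor the endoplasmic reticulum held all the calls that fell. Dnaja2, a general J-protein of Hsp70, was 7.44, 7.96, 7.54 and 7.63 in NTg gastrocnemius, 7.10, 7.02, 6.82 and 7.15 in SOD1 and 7.34, 6.93, 7.08 and 6.77 after crush (1417182_at). Neither condition overlapped with NTg, and it fell by 0.62 ± 0.15 in SOD1 (adjusted p = 0.0154) and by 0.61 ± 0.15 after crush (adjusted p = 0.0273). Without crush replicate 4 the crush difference was -0.52 (adjusted p = 0.0549). Dnaja2 at 1417182_at was the only chaperone probe set called in both comparisons, which share the NTg arrays. In triceps it was 7.73, 7.84, 7.91 and 7.49 in NTg and 7.70, 7.71, 7.81 and 7.30 in SOD1 mice (-0.11, adjusted p = 0.735). Its second and brighter probe set, 1417183_at, differed by -0.34 (adjusted p = 0.11) in SOD1 gastrocnemius and by 0.27 (adjusted p = 0.348) in triceps. After crush 1417183_at was 8.13 to 8.31, which overlapped with 8.27 to 8.44 in NTg gastrocnemius. Without crush replicate 4 this difference was -0.17 (adjusted p = 0.557), so the call after crush rests on the dimmer probe set.

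Dnajb5, a J-protein that is abundant in muscle, had values of 7.43, 7.29, 7.82 and 7.11 in NTg and 6.99, 6.40, 6.29 and 5.45 in SOD1 gastrocnemius at 1421961_a_at. It fell by 1.13 ± 0.31 (to 0.456 of the NTg signal, adjusted p = 0.0258). Its 2 brighter probe sets differed by -0.61 (adjusted p = 0.0608) and -0.51 (adjusted p = 0.163), and after crush the 3 differed by -0.77, -0.56 and -0.26 (adjusted p = 0.165, 0.131 and 0.591). In NTg triceps 1421961_a_at ran from 5.62 to 7.31, and SOD1 triceps (6.11 to 6.95) lay within that range.

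Dnajc12, a J-protein that binds aromatic amino acid hydroxylases, was 7.91, 7.33, 7.29 and 7.82 in NTg, 7.41, 6.66, 6.88 and 7.06 in SOD1 and 6.99, 7.10, 7.15 and 7.09 in crushed gastrocnemius. It fell by 0.59 ± 0.16 in SOD1 (adjusted p = 0.0267), with overlap at SOD1 replicate 1. In triceps all SOD1 arrays (6.92 to 7.07) were below all NTg arrays (7.10 to 7.63), but the difference of -0.43 ± 0.16 was not called (adjusted p = 0.241). Crush arrays were all below NTg as well (-0.51 ± 0.16, adjusted p = 0.0843).

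Dnajc21, a J-protein of ribosome maturation, was 8.25, 8.03, 8.29 and 8.35 in NTg, 7.90, 7.50, 7.84 and 7.81 in crushed and 7.96, 7.82, 7.77 and 7.96 in SOD1 gastrocnemius. Neither condition overlapped with NTg. It fell by 0.47 ± 0.12 after crush (adjusted p = 0.0277), and by 0.48 (adjusted p = 0.0289) without replicate 4, when it was the only chaperone called there. The SOD1 difference of -0.35 ± 0.12 had an adjusted p of 0.051, and of 0.0392 without crush replicate 4. In triceps the log2 change was -0.03 (adjusted p = 0.914).

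The other J-proteins were mixed. Over the 29 tested probe sets, 16 were above 0 and 13 below in SOD1 gastrocnemius, 18 and 11 in SOD1 triceps and 15 and 14 after crush, with medians of 0.081, 0.11 and 0.043. Dnajb6, a suppressor of aggregation that sits at the Z-disc, was 6.95 to 7.14 in NTg and 7.46 to 7.75 in SOD1 gastrocnemius at 1448234_at without overlap (0.53 ± 0.20, adjusted p = 0.0924). At its brighter probe set 1434035_at the groups overlapped, with 8.06 to 8.69 in NTg and 8.52 to 9.05 in SOD1 (0.37, not called). Its dim probe set 1429776_a_at, below the filter, differed by -0.09. Dnajb1, the classical heat-inducible J-protein, differed by 0.20 (adjusted p = 0.59). Dnajb2, which directs clients to the proteasome, was 7.53 to 7.94 in NTg and 7.96 to 8.26 in SOD1 gastrocnemius (0.36 ± 0.17, adjusted p = 0.159). Of the 5 tested probe sets of endoplasmic reticulum J-proteins none was called; Dnajb9, a cofactor of the reticulum's Hsp70 and the brightest, was 8.50 to 8.69 in NTg and 8.44 to 8.60 in SOD1 gastrocnemius. Below the filter, Dnajc1 was 5.11 to 5.58 in NTg and 5.51 to 6.30 in SOD1 gastrocnemius (0.64 ± 0.18 with no filter, adjusted p = 0.0329).

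**Figure D3:**
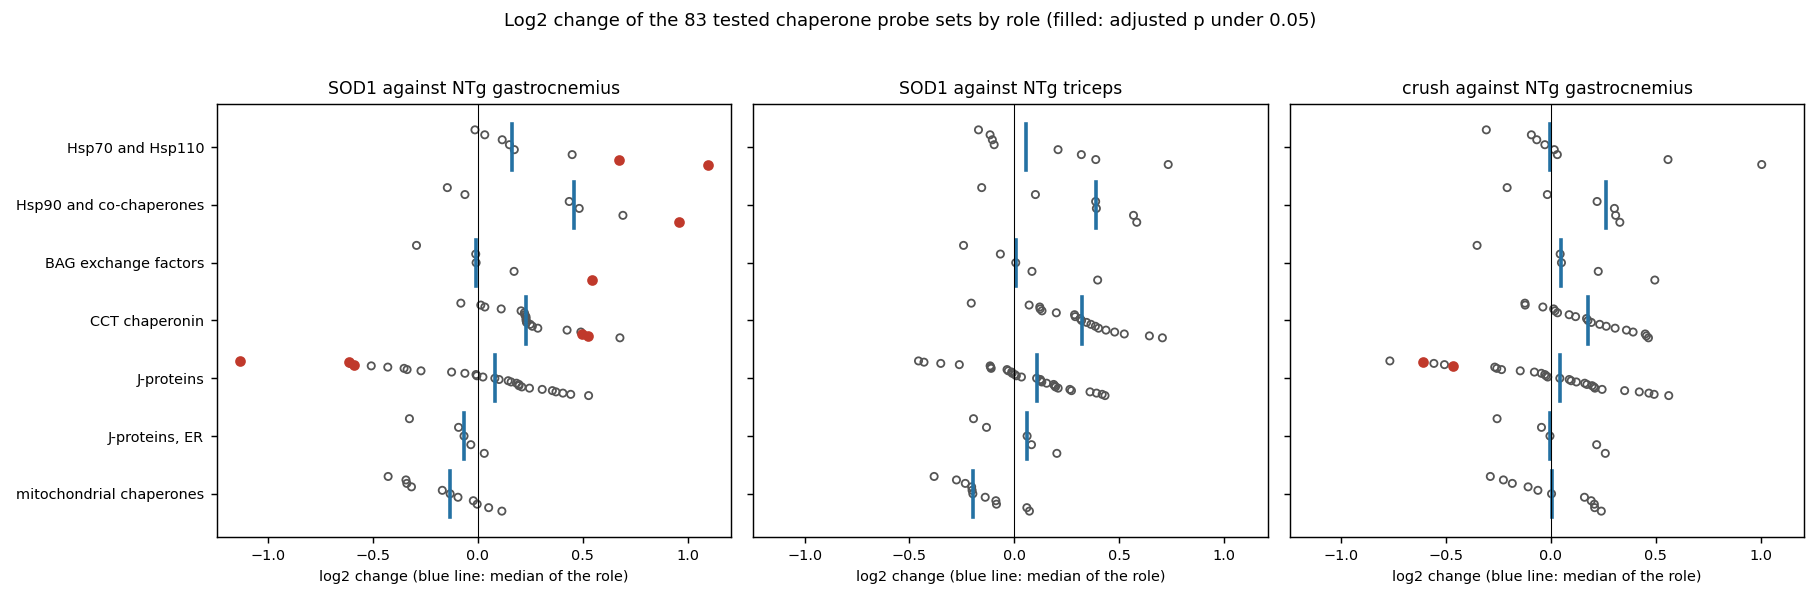
Log2 change (x axis, same scale in each panel) of each of the 83 tested chaperone probe sets by role (y axis) in SOD1 gastrocnemius, SOD1 triceps and crushed gastrocnemius against NTg of the same muscle. Filled points are called and blue lines mark the median of a role. The CCT points lie above 0 for 18, 18 and 16 of 19 probe sets, and the mitochondrial points below 0 for 9, 9 and 5 of 11.

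Of the CCT chaperonin, whose 8 subunits form the ring, Cct3 and Cct4 rose in SOD1 gastrocnemius. Cct3 was 9.61, 9.68, 9.46 and 9.68 in NTg and 9.91, 10.26, 10.08 and 10.28 in SOD1 gastrocnemius at 1448178_a_at. All SOD1 arrays were above all NTg arrays, and it rose by 0.53 ± 0.17 (1.44-fold, adjusted p = 0.0449). Crushed arrays were at 9.90, 9.98, 9.99 and 10.35, again all above NTg (0.45 ± 0.17, adjusted p = 0.128; 0.35 and 0.235 without replicate 4). In triceps the NTg arrays were spread over 9.74 to 10.58 and the SOD1 arrays lay within that range (0.12 ± 0.17, adjusted p = 0.734). The 3 other Cct3 probe sets differed in SOD1 gastrocnemius by 0.68 (adjusted p = 0.0547), 0.43 (adjusted p = 0.467) and 0.23 (adjusted p = 0.45). In triceps 1449645_s_at was 6.49, 5.93, 6.16 and 6.07 in NTg and 6.43, 6.78, 6.71 and 7.29 in SOD1 mice (0.64 ± 0.19, adjusted p = 0.156).

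Cct4 was 8.73, 8.89, 9.05 and 8.83 in NTg and 9.15, 9.36, 9.50 and 9.48 in SOD1 gastrocnemius at 1433447_x_at. It rose by 0.50 ± 0.15 (1.41-fold, adjusted p = 0.0367), and the suffix of the probe set says that it may bind other transcripts. Crushed arrays were at 8.92, 8.86, 9.01 and 9.64, so that replicates 1 to 3 lay within the NTg range. The other 4 Cct4 probe sets had log2 changes of 0.49 (adjusted p = 0.0543), 0.29, 0.25 and 0.21 in SOD1 gastrocnemius, all in the same direction.

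The remaining subunits had small differences of mostly the same sign. In SOD1 gastrocnemius 18 of 19 CCT probe sets were above 0, with a median of 0.23, where 3749 of all 7523 tested probe sets were. Cct5 was the one below, at -0.08. In SOD1 triceps 18 of 19 were above 0 with a median of 0.32, and 17 of 19 without SOD1 triceps replicate 4. After crush 16 of 19 were above 0 with a median of 0.18, but 10 of 19 with a median of 0.013 without replicate 4. Taking 1 probe set a gene, 7, 8 and 7 of 8 genes were above 0. On crush replicates 1, 2 and 3, only 3, 3 and 3 of these 8 genes were above the NTg mean, and on replicate 4 all 8 were. Probe sets of a gene and subunits on the same arrays are not independent, and these counts carry no test.

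Array by array, the median over the 8 CCT genes of the deviation from the NTg mean of the same muscle was 0.05, 0.15, 0.24 and 0.35 in SOD1 gastrocnemius. It was 0.18, 0.32, -0.03 and 0.42 in SOD1 triceps and -0.11, -0.05, -0.03 and 0.41 after crush, while the NTg arrays ran from -0.05 to 0.05 in gastrocnemius and from -0.14 to 0.12 in triceps. Crush replicate 4, SOD1 triceps replicate 4 and SOD1 gastrocnemius replicate 4 were highest in their groups, and these arrays also had the highest denervation sums (12.13, 11.94 and 11.69); whether the 2 are linked was not tested. The 4 tested Hsp70 and Hsp110 genes had medians of 0.31, 0.50, 0.61 and 0.82 in SOD1 gastrocnemius and 0.21, 0.12, 0.14 and 0.82 after crush. In SOD1 triceps they were 0.28, 0.40, 0.05 and 0.29, where replicate 4 was not the highest. Cct6a, the brightest CCT gene, was 10.07 to 10.16 in NTg and 9.94 to 10.25 in SOD1 gastrocnemius at 1423517_at (0.03 ± 0.12, adjusted p = 0.886). It was also highest on crush replicate 4 (10.44) and SOD1 triceps replicate 4 (10.43).

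**Figure D4:**
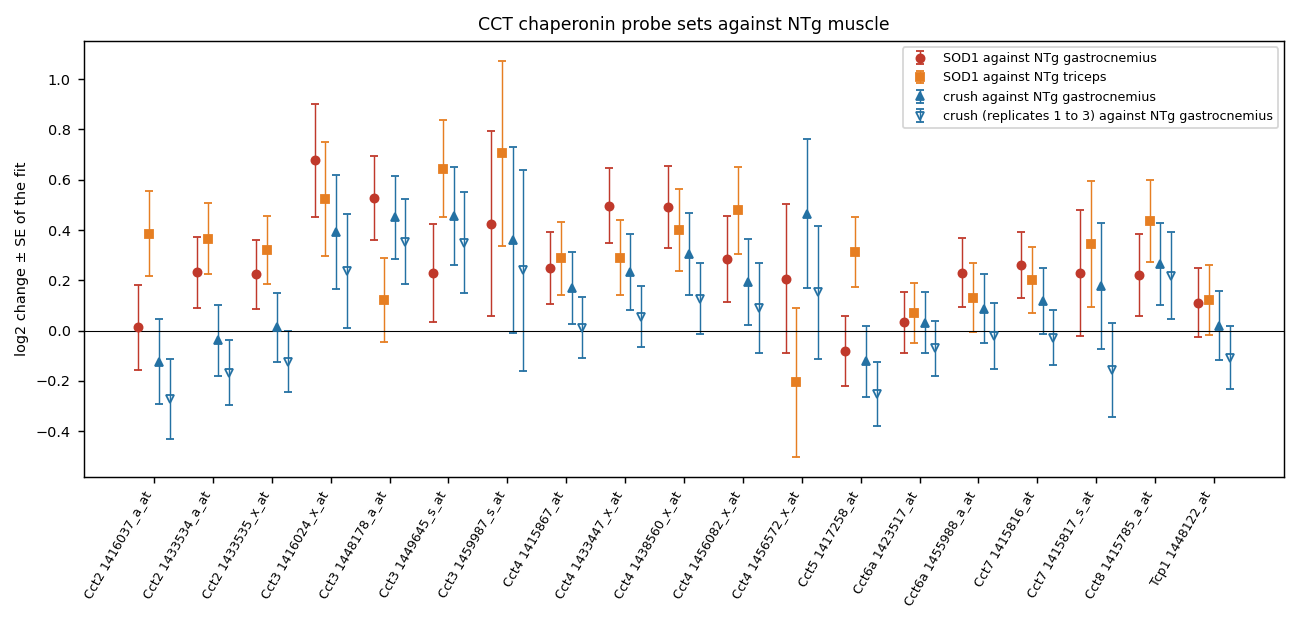
Log2 change (y axis) with the SE of the fit for each of the 19 CCT probe sets (x axis) against NTg of the same muscle; open triangles are crush without replicate 4. Points of both SOD1 muscles lie mostly above 0, and those of crush move towards or below 0 once replicate 4 is left out (16 of 19 above 0 with it, 10 of 19 without).

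**Figure D5:**
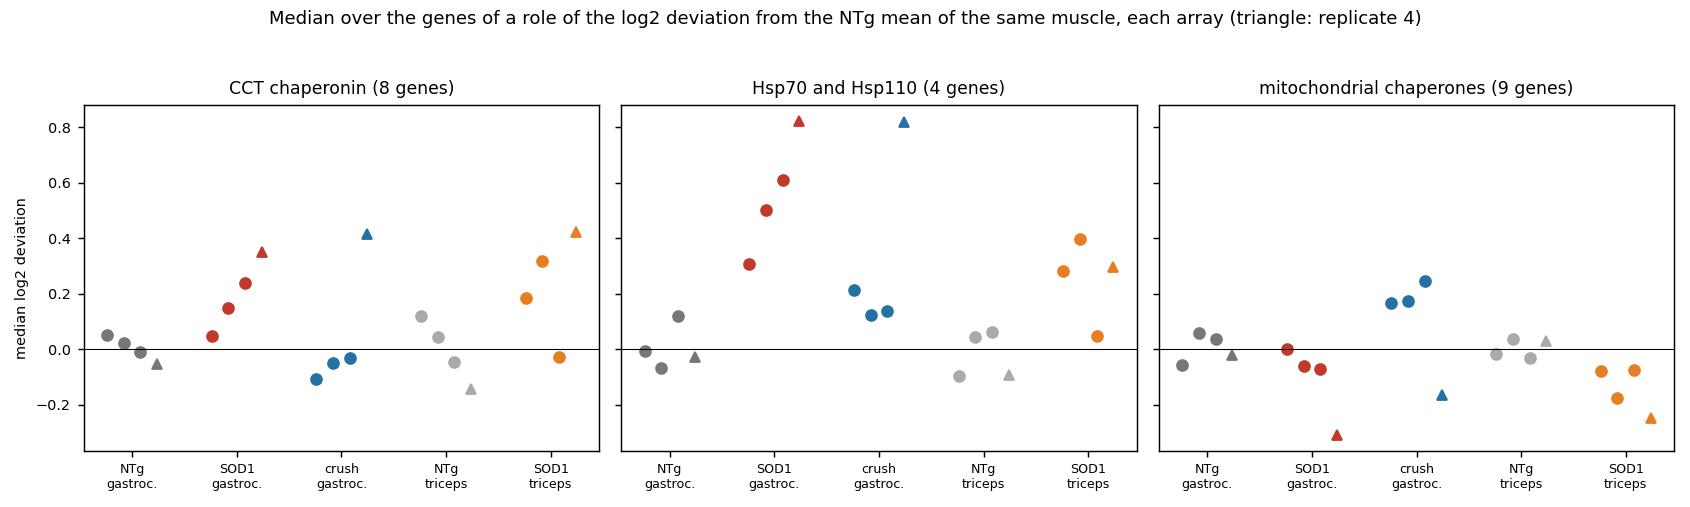
Median over the genes of a role of the log2 deviation from the NTg mean of the same muscle (y axis) on each array by group (x axis), for the CCT, Hsp70 and Hsp110, and mitochondrial chaperones; triangles are replicate 4. Crush replicate 4 lies at 0.41, 0.82 and -0.16, and the other crush arrays at -0.11 to -0.03, 0.12 to 0.21 and 0.17 to 0.24.

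Mitochondrial chaperones lay mostly below 0 in both SOD1 muscles, without a call when all arrays were used. Without crush replicate 4 in the fit, Dnajc15 was called in SOD1 gastrocnemius (-0.34, adjusted p = 0.0466). Its SOD1 gastrocnemius arrays, at 8.83 to 9.15, were all below the NTg arrays, at 9.27 to 9.55. In SOD1 gastrocnemius 9 of 11 probe sets were below 0 with a median of -0.13, and in SOD1 triceps 9 of 11 with a median of -0.20. After crush 6 were above 0 (median 0.0035), and 8 with a median of 0.14 without replicate 4. Array by array, the median deviation over the 9 mitochondrial genes was 1.4e-05, -0.06, -0.07 and -0.31 in SOD1 gastrocnemius. The NTg gastrocnemius arrays ran from -0.06 to 0.06, so only SOD1 replicate 4 lay well below them. In SOD1 triceps it was -0.08, -0.18, -0.08 and -0.25, beside -0.03 to 0.04 in NTg triceps. Hspd1, the Hsp60 ring of the matrix, was 10.01, 10.08, 10.27 and 9.95 in NTg, 10.02, 10.02, 10.01 and 9.74 in SOD1 and 10.41, 10.47, 10.44 and 9.96 in crushed gastrocnemius. Crush replicates 1 to 3 were above every array of every other group, and replicate 4 was not. The crush difference was 0.24 ± 0.12 (adjusted p = 0.274), and 0.36 (adjusted p = 0.057) without replicate 4. Hspe1, the lid of the Hsp60 ring, was 7.58 to 8.04 in NTg and 7.29 to 7.72 in SOD1 gastrocnemius at 1422579_at (-0.34 ± 0.13, adjusted p = 0.0797), while its brighter probe set 1450668_s_at differed by -0.0033. After crush, Hspe1 at 1422579_at was 7.48 to 7.58 in replicates 1 to 3 and 7.35 in replicate 4, all below the NTg arrays (-0.29 ± 0.13, adjusted p = 0.195; -0.24 and 0.307 without replicate 4). At 1450668_s_at crushed and NTg arrays overlapped (-0.062, adjusted p = 0.796). Hspa9, the mitochondrial Hsp70, was 9.33 to 9.60 in NTg gastrocnemius at 1418504_at. It was 9.72 to 9.76 in crush replicates 1 to 3 and 9.26 in replicate 4 (0.19 ± 0.12, adjusted p = 0.391). Without replicate 4 the crush difference was 0.31 (adjusted p = 0.09) there and 0.14 (adjusted p = 0.606) at 1418503_at.

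In SOD1 triceps no chaperone passed the threshold in limma, beside 0.239% of all probe sets, and 18 of the 83 (21.7%) had an unadjusted p under 0.05, beside 15.2% of all. The lowest adjusted p-values belonged to Hspa4, Cct3 at 1449645_s_at and St13, with the values given above. Without SOD1 triceps replicate 4 the last 2 differed by 0.48 (adjusted p = 0.532) and 0.44 (adjusted p = 0.607). Hspa1b then differed by 0.44, Dnajc12 by -0.41 and Cct3 at 1448178_a_at by 0.04, and Dnaja2 at 1417182_at by -0.0010. The small difference of Dnajc21 turned from -0.03 to 0.04. The groups did not overlap at 9 chaperone probe sets (10.8%), beside 6.99% of all. The difference between the SOD1 effect in gastrocnemius and that in triceps was tested itself: no chaperone was called, beside 0% of all probe sets, and 3 probe sets (3.61%) had an unadjusted p under 0.05, beside 9.44% of all. These were the 2 Dnaja2 probe sets (1417183_at -0.61 ± 0.20, adjusted p = 0.412, and 1417182_at -0.51 ± 0.21, adjusted p = 0.493) and Dnajb5 at 1421961_a_at (-1.02 ± 0.44, adjusted p = 0.494), each lower in gastrocnemius. Without crush replicate 4 the share called was also 0%. So no gene above is shown to respond differently in the 2 muscles.

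After crush 2 chaperone probe sets were called (2.41%), beside 4.13% of all. Both fell, beside 3.06% of all probe sets that fell and 1.08% that rose; 15 of the 83 probe sets (18.1%) had an unadjusted p under 0.05, beside 20.7% of all. The groups did not overlap at 16 (19.3%), beside 16.4% of all. The next by p was Dnaja4, a muscle-rich J-protein, which was 8.10, 7.53, 8.11 and 7.82 in NTg and 8.47, 8.37, 8.36 and 8.61 in crushed gastrocnemius at 1418591_at. All crushed arrays were above all NTg arrays, by 0.56 ± 0.16 (adjusted p = 0.0539), and by 0.51 (adjusted p = 0.0889) without replicate 4. The SOD1 arrays were at 8.07 to 8.46 (0.31, adjusted p = 0.212). The count of 2 became 1, 1, 0 and 0 as NTg replicates 1 to 4 were left out in turn. It became 2, 0, 2 and 1 as crush replicates 1 to 4 were. The last stands beside 5.25% of all probe sets, and that share is not given for the other fits.

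SOD1 and crushed gastrocnemius were also compared directly. With all arrays no chaperone was called by limma, beside 0% of all probe sets; 9 probe sets (10.8%) had an unadjusted p under 0.05, beside 12.5% of all, and the groups overlapped at every tested chaperone, beside 5.48% of all that did not. The lowest adjusted p-values were those of Hspd1 (-0.37 ± 0.12, adjusted p = 0.226), Dnajc2, a ribosome-bound J-protein (0.46 ± 0.16, adjusted p = 0.251), and Dnajc28 (-0.48 ± 0.17, adjusted p = 0.267). Without crush replicate 4, 7 chaperones were called (8.43%), beside 8.03% of all. That array had a higher mean correlation with SOD1 gastrocnemius (0.945) than with its own group (0.917). Leaving it out therefore favours a difference between SOD1 and crush. Higher in SOD1 were then Dnajb2 (0.61, adjusted p = 0.01), Hsph1 (0.63, adjusted p = 0.0205), Dnajc2 (0.59, adjusted p = 0.0265) and Cct4 (0.44, adjusted p = 0.0302). Lower in SOD1 were Hspd1 (-0.49, adjusted p = 0.011), Hspa9 (-0.41, adjusted p = 0.0249) and Dnajc28 (-0.63, adjusted p = 0.0256), all assigned to mitochondria. By role, all 8 Hsp70 and Hsp110 and 18 of 19 CCT probe sets were then above 0, and 10 of 11 mitochondrial ones below 0. With all arrays these counts were already 8, 16 and 10.

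The muscles of NTg mice differed at 3 chaperone probe sets (3.61%), beside 1.71% of all, in a test that did not pair arrays by mouse. Dnajb4, a J-protein related to Dnajb1, was 6.77, 6.63, 6.58 and 6.48 in gastrocnemius and 6.26, 5.58, 5.57 and 5.79 in triceps at 1431734_a_at (0.81 ± 0.17, adjusted p = 0.0204). Dnaja4 was 8.10, 7.53, 8.11 and 7.82 in gastrocnemius and 7.56, 6.87, 7.24 and 7.17 in triceps (0.68 ± 0.16, adjusted p = 0.0368). Both were higher in gastrocnemius, beside 1.52% of all probe sets, and the Dnaja4 groups overlapped at 1 array. Hsph1 was 7.74, 8.02, 8.04 and 7.94 in gastrocnemius and 8.62, 8.73, 8.99 and 8.41 in triceps, lower in gastrocnemius by -0.75 ± 0.19 (adjusted p = 0.0446), beside 0.199% of all. The other probe sets had the same direction without a call: 0.41 (adjusted p = 0.149) for Dnajb4, 0.70 (adjusted p = 0.198) and 0.45 (adjusted p = 0.125) for Dnaja4, and -0.12 (adjusted p = 0.869) for Hsph1. The groups did not overlap at 13 chaperone probe sets (15.7%), beside 10.3% of all. The count of 3 became 0, 2, 0 and 1 as NTg gastrocnemius replicates 1 to 4 were left out in turn. It became 7, 0, 0 and 0 as NTg triceps replicates 1 to 4 were. It stayed 3 without crush replicate 4, beside 2.53% of all, and that share is not given for the other fits. One NTg triceps array, replicate 4, names gastrocnemius in its description but triceps in its title, source and tissue, and was kept as triceps.

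A list of 46 other chaperone cofactors, such as prefoldin subunits, Cdc37, Unc45b and Fkbp proteins, had 33 tested genes. In SOD1 gastrocnemius 2 of the 33 fell, beside 6.02% of all probe sets tested, and none rose, beside 5.97%. Those that fell were Pfdn6, a prefoldin subunit that delivers actin and tubulin to CCT, by 0.36 (adjusted p = 0.0216) and Hikeshi, which imports Hsp70 into the nucleus, by 0.90 (adjusted p = 0.022). After crush 1 fell, beside 3.06% of all, and none rose, beside 1.08%. This was Pfdn6, by 0.35 (adjusted p = 0.0419). In SOD1 triceps none was called, beside 0.239% of all. Between NTg muscles 1 gene, Cacybp, was lower in gastrocnemius (-0.54, adjusted p = 0.0416), beside 0.199% of all. The list's median was -0.085 in SOD1 gastrocnemius, beside -0.0015 for all tested probe sets. It was 0.052 beside 0.013 in SOD1 triceps and -0.0038 beside 0.017 after crush. Of the 21 chaperone genes with several tested probe sets, all probe sets had the same sign in 15 genes in SOD1 gastrocnemius, 15 in SOD1 triceps and 16 after crush. It was so in 13 for SOD1 against crush, 11 for the difference of the SOD1 effects and 9 between the NTg muscles.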

How the data were processed

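Muscle RNA was hybridised to 20 Affymetrix arrays. Total RNA was extracted with Trizol and cRNA made from 4 ug, per the labels' protocols. The authors' signals are MAS5 values, per the submitters' processing notes, and as deposited they are on a log2 scale (from -3.66 to 13.3, array medians 6.61 to 6.76). They were used without further scaling; MAS5 settings: not given in the sources used here.

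Groups followed the titles. The 30% of probe sets with the lowest mean were dropped, which left 7523 of 10748. A limma 3.58.1 model (R 4.3.3) of 5 group means, eBayes with a trend and 15 residual degrees of freedom gave 6 comparisons, two-sided, with Benjamini-Hochberg adjustment over all tested probe sets of each and a threshold of 0.05. The script was tested on simulated data. Symbols are those of GEO's platform table (9874 probe sets had 1 symbol, 387 several, 487 none).

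The members and lists were chosen with earlier results of these data known. Named were all members called in a comparison, or the 3 with the smallest adjusted p where fewer were called. The brightest of each role was named too. Hspa4l, Dnajc1, Dnajc15, Dnajb6, Dnajb1, Dnajb2, Hspa9, Hspe1, Stip1 and the other probe sets and BAG genes were added after their values were seen. Promoters came from RefSeq (GRCm38.p6). Alternatives were other scalings, filters, fits, a replicate block, 1.5-fold and leaving out each array. Separate animals are stated in the design text, but the labels do not say which mouse a replicate number stands for. No cell type marker list for lymphocytes and granulocytes or erythroid cells had a tested gene. Of fibroblast (8 tested), endothelial (6) and adipocyte (1) markers none was called in any comparison, 1 macrophage marker was lower in NTg gastrocnemius than triceps, and of 3 Schwann cell markers 1 fell after crush and 1 was higher in NTg gastrocnemius than triceps. Figures were drawn with matplotlib 3.10.9.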

Additional observations from a re-analysis of the deposited data

Results flagged for a closer look

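Among 125 groups of 4 arrays of the named probe sets, 6 had an array whose gap to the nearest other exceeded Dixon's 95% limit for its share of the group's range; chance alone exceeds it in about 1 of 20 groups. For Hspa4 (1416146_at) SOD1 gastrocnemius replicate 4 was at 8.37, with the nearest at 7.90. For Hspd1 SOD1 gastrocnemius replicate 4 was at 9.74 (nearest 10.01) and crush replicate 4 at 9.96 (nearest 10.41). For Cct6a SOD1 triceps replicate 4 was at 10.43 (nearest 10.10). For Hspa8 (1455789_x_at) SOD1 gastrocnemius replicate 1 was at 11.00 (nearest 11.44), and for Ahsa1 NTg gastrocnemius replicate 2 was at 9.15 (nearest 9.01).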

How the results depend on the processing

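Counts of chaperones called are given in the order SOD1 gastrocnemius, SOD1 triceps, crush, SOD1 against crush and between NTg muscles, where they were 9, 0, 2, 0 and 3. They were 12, 0, 3, 0 and 2 after quantile normalization, 9, 0, 2, 0 and 2 with the 75th percentile subtracted, 11, 0, 3, 0 and 4 with no filter, 10, 0, 4, 0 and 2 with the lowest 60% left out and 20, 0, 3, 0 and 2 with only the compared arrays. They were 9, 0, 2, 0 and 2 without the trend, 9, 0, 2, 0 and 3 with robust eBayes, 30, 0, 12, 13 and 7 with array weights, 6, 0, 2, 0 and 1 with the mean of a gene's probe sets, counted in genes, and 6, 0, 1, 0 and 3 with 1.5-fold also required. Leaving out 1 array gave 0 to 17, 0 to 1, 0 to 2, 0 to 7 and 0 to 7. The difference of the SOD1 effect between muscles had 0 calls in each of these. With no filter, 9.13%, 0.214%, 2.87%, 0% and 1.73% of all probe sets were called, in the same order. For the other settings here and below, except the fit without crush replicate 4, the share of all probe sets is not given. Their counts therefore do not set chaperones apart from other genes. No probe set named for its call or its small adjusted p changed direction under an alternative. The brightest of each role were not followed through all alternatives; of these Cct6a differed by 0.03 after crush and by -0.07 without crush replicate 4, and the cause of the changed counts was not tested.

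With the replicate number as a block the counts were 15, 1, 6, 0 and 4, and with arrays of one number within a genotype as a random block (consensus correlation 0.248) 10, 0, 4, 0 and 7. The numbers were not taken as pairs: same-numbered SOD1 muscles correlated at 0.57, -0.10, -0.037 and 0.62 and NTg muscles at 0.24, 0.13, 0.21 and -0.087, and not every array correlated best with its own number. The counts of CCT probe sets above 0, added after seeing the data, were 17 to 18, 17 to 19 and 10 to 18 of 19 in SOD1 gastrocnemius, SOD1 triceps and crush when 1 array was left out. Without detection calls, the signal over background of dim probe sets is not known.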
